A study of Mus musculus with 30 samples.

Results

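The comparison described here is that of mouse embryonic stem cells carrying Tir1 and no degron target, with and without auxin. The members are 6 of the 30 libraries of the series, chosen by their titles: 3 of Tir1 control cells after 24 h in auxin and 3 of the same cells untreated. Both groups are the line EN148.10, of genotype Tir1, in the E14 background (129P2/Ola, XY). Auxin was indole-3-acetic acid sodium at 500 µM. All cells grew in serum with leukemia inhibitory factor and the kinase inhibitors PD0325901 and CHIR-99021, so the untreated cells were under these agents too. For reference, the text uses 2 other lines that carry the auxin-inducible degron, each with 3 untreated and 3 auxin libraries. They are EN293.1 (PDS5A-AID, PDS5B-AID, Tir1; here PDS5AB) and CMW184 (WAPL-AID, Tir1; here WAPL), in which auxin also removes cohesin regulators. It also uses the untreated libraries of EN331.2 (PDS5A-AID and PDS5B-AID with NIPBL-FKBP, RAD21-Halo and Tir1) and EN382.1 (WAPL-AID with NIPBL-FKBP, RAD21-Halo and Tir1). In both of these the treated groups had auxin and dTAG-13 together. Each line is a single cell line, and the labels do not say that replicates came from separate cultures, so p-values measure only the spread between these libraries.

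Auxin is a plant hormone. Tir1 is the plant F-box protein that binds it and joins the cell's SCF ubiquitin ligase, which then marks proteins that carry an auxin-inducible degron for destruction by the proteasome. Mammalian cells have no Tir1 of their own, but indole compounds, auxin's chemical class, can be ligands of the aryl hydrocarbon receptor. This receptor waits in the cytosol, enters the nucleus on binding a ligand, pairs with Arnt, and binds the core GCGTG in DNA to switch on detoxifying enzymes and its own repressor.

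The library numbers of the 2 groups lie on either side of a break. The untreated Tir1 libraries carry the numbers 5, 13 and 21, in a set of 9 libraries numbered up to 21. The auxin libraries carry 43, 44 and 45, in a set of 21 libraries numbered from 25. Auxin and whatever else differs between these sets cannot be told apart from the 6 libraries alone. The PDS5AB groups lie within the lower-numbered set and the WAPL groups within the other, and neither shares a library with the Tir1 comparison. For the main Tir1 results, 2 further values are therefore given where they bear on the reading: the range over the 9 untreated libraries numbered from 25, and the auxin effect in the PDS5AB and WAPL lines. The 6 libraries held between 23832495 and 45539021 counted fragments, against 19632704 to 45539021 over all 30. Levels are given as CPM, fragment counts scaled by library total and TMM factor. Log2 CPM correlated at r of at least 0.989 within the untreated group and 0.993 within the auxin group.

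The cells carried the markers of their label. Pou5f1, which encodes the pluripotency factor Oct4, stood at 783, 833 and 793 CPM in the untreated libraries and 682, 760 and 741 in the auxin libraries. Sox2, its partner, stood at 441, 427 and 456 CPM untreated and 458, 482 and 486 in auxin. The 2 factors did not pass edgeR's test (adjusted p = 0.18 for Pou5f1 and 0.36 for Sox2).

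The largest rises with auxin were in the receptor's own target genes. The promoters of Cyp1a1, Cyp1b1 and Ahrr are shown because these were the 3 genes with the largest rise among those with a mean count of at least 50. Each line gives the 250 bases before the RefSeq gene start (GRCm38.p6), 5′ to 3′ on the gene's strand, with GCGTG or its reverse complement CACGC in capitals.
Cyp1a1, chr9:57697363-57697612, plus strand: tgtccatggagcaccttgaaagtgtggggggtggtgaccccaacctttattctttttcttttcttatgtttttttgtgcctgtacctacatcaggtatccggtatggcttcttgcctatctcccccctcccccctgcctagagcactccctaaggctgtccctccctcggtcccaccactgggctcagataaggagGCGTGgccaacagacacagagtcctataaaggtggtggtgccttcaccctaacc
Cyp1b1, chr17:79715062-79715311, minus strand: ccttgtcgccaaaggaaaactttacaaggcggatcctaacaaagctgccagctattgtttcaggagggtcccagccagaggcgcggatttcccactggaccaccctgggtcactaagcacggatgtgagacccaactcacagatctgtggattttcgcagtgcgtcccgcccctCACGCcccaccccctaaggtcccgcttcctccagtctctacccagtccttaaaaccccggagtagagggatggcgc
Ahrr, chr13:74292332-74292581, minus strand: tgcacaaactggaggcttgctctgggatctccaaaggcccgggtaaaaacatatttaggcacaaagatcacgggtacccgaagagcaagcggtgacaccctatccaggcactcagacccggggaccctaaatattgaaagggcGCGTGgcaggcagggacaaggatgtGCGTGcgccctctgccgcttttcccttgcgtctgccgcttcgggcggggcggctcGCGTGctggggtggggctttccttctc
Cyp1a1 and Cyp1b1 each held the core once in this window, starting 54 and 76 bases before the gene start, and Ahrr held it 3 times, at 107, 82 and 27 bases before it. Of the 9 receptor list genes matched in RefSeq's promoters, 5 held the core, and Cyp1a2 and Nqo1, which also rose, did not. Of all 32851 such promoter windows, 28.2% held the core on either strand, and 41.6% of the 16156 windows of tested genes did. The share was 43.7% among windows of genes that rose and 43.7% among those of genes that fell, and it was 29.1% among the 223 windows of genes that rose at least 2-fold. A match is a description of these letters and not of binding.

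Cyp1a1, a cytochrome P450 and the classical target of the receptor, lies at chr9:57687928-57703824 on the plus strand in the deposited annotation (GRCm38), whose gene model begins upstream of the RefSeq start. It stood at 0.478, 0.440 and 0.390 CPM in the untreated libraries and at 74.9, 59.7 and 65.1 CPM in the auxin libraries. The groups did not overlap, and the 9 untreated libraries numbered from 25 lay between 0.491 and 1.18 CPM, far under the auxin libraries. The log2 fold change was 7.24 ± 0.20 (SE; edgeR adjusted p = 9.22e-22). Cyp1b1, a related P450 at chr17:79701537-79715061 on the minus strand, had only 3, 1 and 1 fragments in the untreated libraries and 315, 454 and 469 in the auxin libraries. This is 9.58, 10.3 and 12.4 CPM in auxin and a ratio of 168, with an exact 95% interval of 71.9 to 519 that covers counting error only. Ahrr encodes the repressor that competes with the receptor for Arnt. It stood at 0.110, 0.0881 and 0.284 CPM untreated and 6.63, 6.02 and 7.80 CPM in auxin (log2 fold change 5.32 ± 0.38, SE; edgeR adjusted p = 4.72e-11). It had 3, 2 and 8 untreated fragments, and the ratio of 40.7 had an exact 95% interval of 23.7 to 76.8 for counting error. Without untreated replicate 3 the log2 fold change of Ahrr was 6.03. Cyp1a2, the neighbour of Cyp1a1 on chromosome 9, went from 0.0367, 0.352 and 0.0355 CPM to 1.22, 1.11 and 1.59 (log2 fold change 3.28 ± 0.59, SE; edgeR adjusted p = 0.00019). It had 1, 8 and 1 fragments in the untreated libraries and 40, 49 and 60 in the auxin libraries, a ratio of 10.1 with an exact 95% interval of 5.36 to 21.6 for counting error. Without untreated replicate 2, which held the 8, the log2 fold change was 5.02, and without replicate 1 or 3 it was 2.85 or 2.80.

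Over the list of 13 receptor genes, 11 were tested, 8 rose and none fell at an edgeR adjusted p under 0.05. The background was 10.4% of all 19868 tested genes for a rise and 9.59% for a fall. No member fell at an unadjusted p under 0.05 or by DESeq2 either. The list's median log2 fold change was 0.63, against -0.01 over all tested genes. Besides the 4 genes above, Tiparp, a poly(ADP-ribose) polymerase that restrains the receptor, rose from 37.0 ± 1.62 to 59.5 ± 2.64 CPM (SD, n = 3 each). Nqo1, a quinone reductase, rose from 37.5 ± 7.21 to 57.7 ± 6.28 CPM. The receptor itself, Ahr, rose from 13.5 ± 0.774 to 18.2 ± 0.281 CPM, and its partner Arnt from 95.4 ± 6.86 to 118 ± 5.67 CPM. Of the 8 that rose, 7 lay above every untreated library numbered from 25 in all 3 auxin libraries, the exception being Arnt. That position was held by 38.2% of all genes that rose and by 9.38% of all tested genes. The aldehyde dehydrogenase Aldh3a1 and the P450 Cyp2s1 had log2 fold changes of -0.12 and 0.21 and were not called. All 8 calls held without any 1 of the 6 libraries and under each other alternative except a 2-fold minimum, which left 4.

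**Figure D1:**
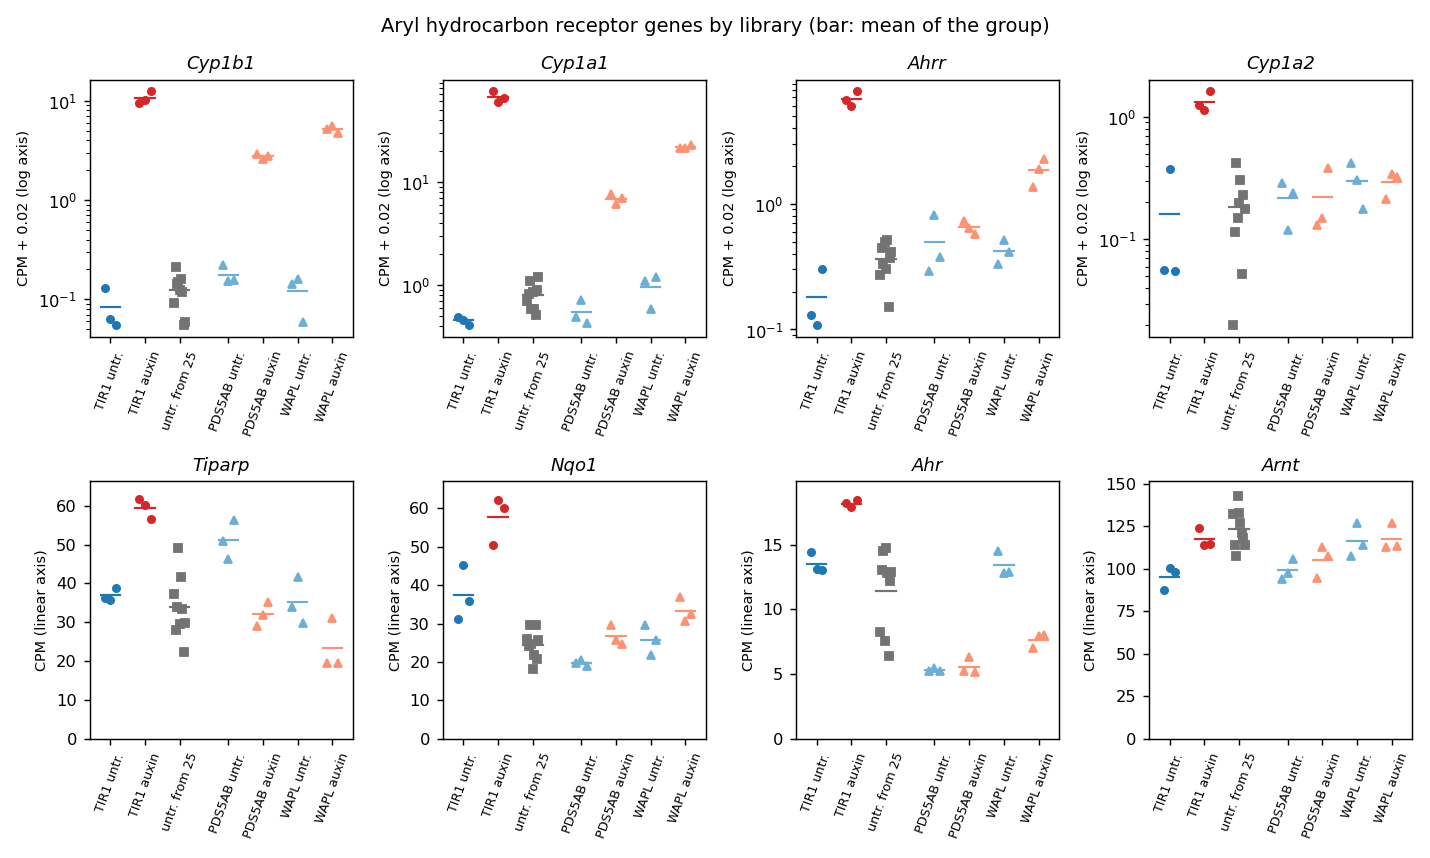
CPM of 8 receptor genes in each library, on a log axis of CPM + 0.02 in the upper row and a linear axis in the lower row. Columns are the Tir1 groups, the 9 untreated libraries numbered from 25 (which include the WAPL untreated ones), and the PDS5AB and WAPL groups; points are libraries and bars are group means. Cyp1a1 in auxin reaches 66.6 CPM on average in the Tir1 line, 6.87 in PDS5AB and 21.7 in WAPL.

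Under the same treatment, Cyp1a1 and Ahrr had smaller effects in both degron lines than in the Tir1 line, as the plot of receptor genes also shows. Cyp1a1 rose by 3.71 on the log2 scale in PDS5AB and by 4.53 in WAPL, 3.54 and 2.72 less than in the Tir1 line (edgeR interaction test, adjusted p = 5.67e-08 and 4.90e-07). Ahrr rose by 2.20 in WAPL and was not called in PDS5AB (log2 fold change 0.41). Its Tir1 effect exceeded them by 3.13 (edgeR adjusted p = 0.000198) and 4.92 (edgeR adjusted p = 2.53e-07). For Cyp1b1 the Tir1 effect was larger than that in PDS5AB by 3.20 (edgeR adjusted p = 0.000302), while the difference of 1.72 from WAPL was not called (edgeR adjusted p = 0.094). Tiparp differed in sign: it rose by 0.68 in the Tir1 line and fell by 0.68 in PDS5AB and by 0.58 in WAPL. Its interaction values, read after these effects were seen, were 1.36 and 1.26 (edgeR adjusted p = 4.79e-05 and 0.000151). Cyp1a1, Cyp1b1 and Ahrr were also picked for large Tir1 rises, so a larger effect in the Tir1 line was partly built in. Across all tested genes, 26.3% differed from the PDS5AB effect and 20.7% from the WAPL effect by this test. The lines also differ in tagged alleles and library set, whose part in these differences was not tested.

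Across all genes, 3962 of 19868 (19.9%) were called, 2057 higher and 1905 lower with auxin, and 6444 had an unadjusted p under 0.05. Most changes were small: 733 called genes (3.69%) changed at least 2-fold, 282 of them upward and 451 (2.27%) downward. Without auxin replicate 1, auxin replicate 3 or untreated replicate 2, the count of genes that fell was 1137, 1207 and 1199. Of the genes that rose, 785 (38.2%) lay above all 9 untreated libraries numbered from 25 in every auxin library, and 1251 (60.8%) lay within their range. Of those that fell, 517 (27.1%) lay below that range and 1373 (72.1%) within it. Called or not, 9.38% of tested genes had all 3 auxin libraries above those 9 and 7.61% had them below, and 7782 (39.2%) had auxin and untreated Tir1 groups that did not overlap. A smaller group of 180 genes (0.906% of those tested) separated all 30 libraries by their number whatever the line or treatment, and 137 of these were among the Tir1 calls. This rule sets the 2 Tir1 groups apart by definition, so a high share of calls among the 180 genes was built in.

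**Figure D2:**
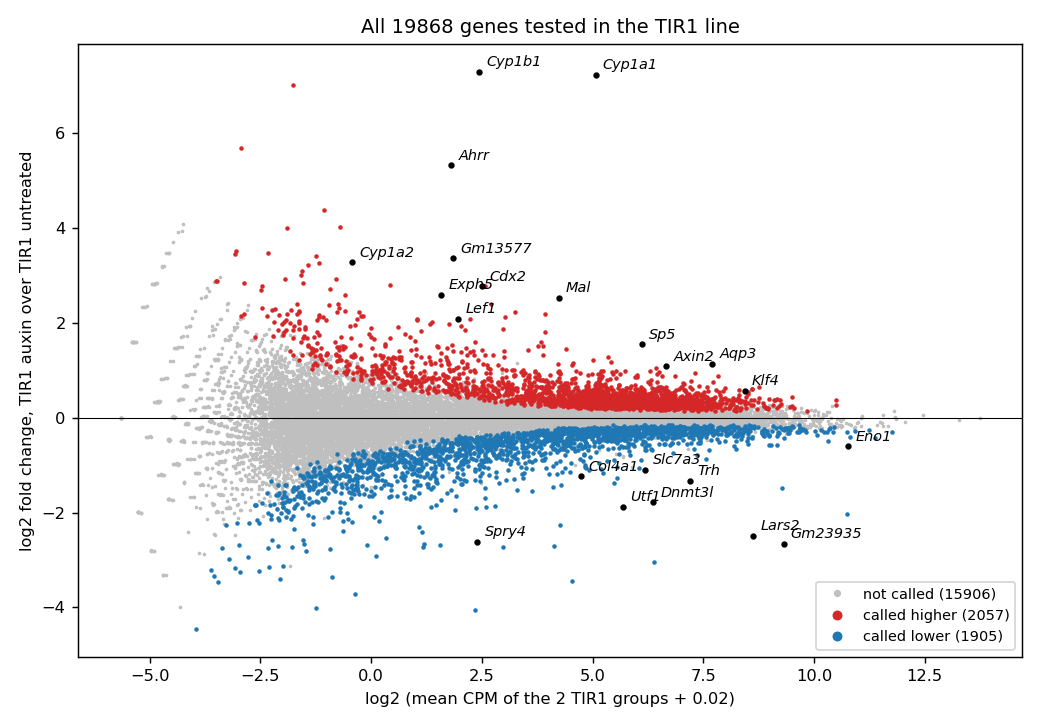
Log2 fold change of auxin over untreated Tir1 cells against the log2 of the mean CPM plus 0.02 for every tested gene; each point is a gene, coloured by its call. Cyp1a1, Cyp1b1 and Ahrr stand at 7.24, 7.30 and 5.32, while most called genes of high abundance lie close to 0.

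The calls varied with the length of the transcript model. Among protein-coding genes with 500 to 1000 bases of exon, 2.05% rose and 17.3% fell, with a median log2 fold change of -0.20. Among those with 8000 bases or more, 22.6% rose and 5.07% fell, with a median of 0.13. The bins between lay in order. The 51 genes under 500 bases had 3.92% higher, 19.6% lower and a median of -0.34. In the PDS5AB line the medians of these 2 bins were -0.03 and 0.10, and in the WAPL line 0.03 and 0.04. Processed pseudogenes, intron-less copies that can share reads with their parent genes, had 41 higher and 271 lower of 1696. The part of exon length in the calls of short genes such as those for ribosomal and respiratory proteins was not tested.

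**Figure D3:**
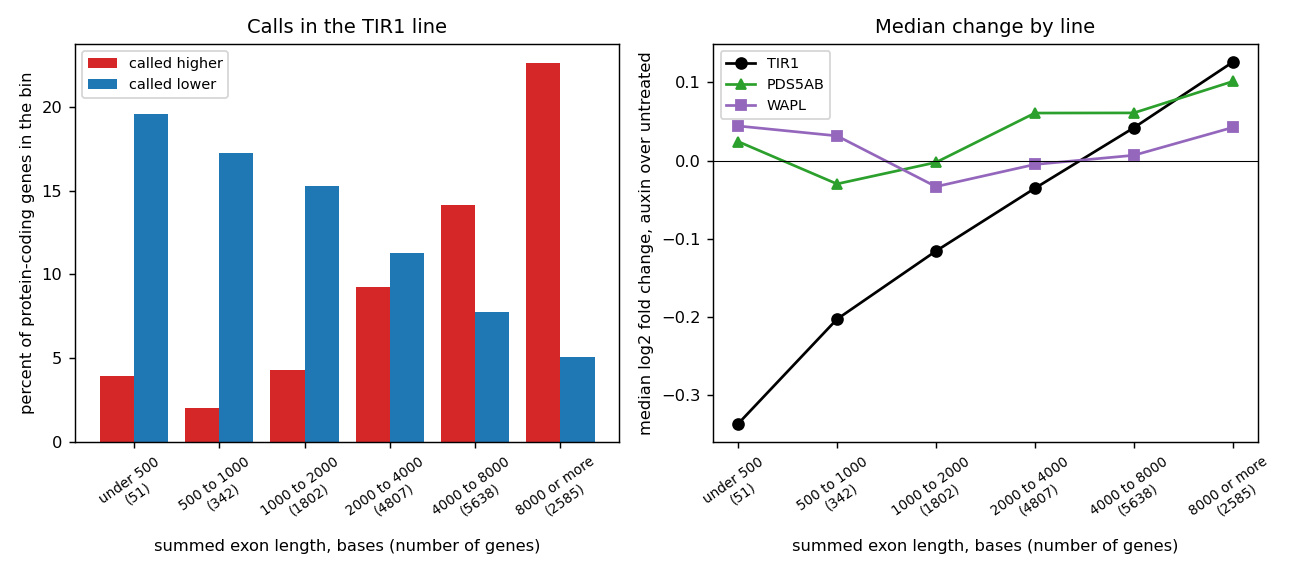
Left, percent of protein-coding genes called higher or lower in the Tir1 line by summed exon length in bases, with the number of genes under each bin. Right, median log2 fold change of auxin over untreated in the same bins for the Tir1, PDS5AB and WAPL lines; the Tir1 median goes from -0.20 at 500 to 1000 bases to 0.13 at 8000 or more.

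Many listed targets of p53, the damage-responsive transcription factor, rose. Of 21 listed genes 13 rose and none fell, with a median log2 fold change of 0.38, and 10.4% of all tested genes rose. Without auxin replicate 3 or untreated replicate 2, 10 of the 21 rose. Of the 13, 11 lay above the untreated libraries numbered from 25, a position held by 38.2% of all genes that rose and 9.38% of all tested genes. Of the same 13, 8 also rose in the PDS5AB and WAPL lines. Of all genes that rose in the Tir1 line 25.96% did so in those lines too, which is 2.69% of all tested genes. At an unadjusted p under 0.05, 16 rose and none fell, and DESeq2 called 14 higher and none lower. Plk2, a polo-like kinase, stood at 67.6, 63.2 and 68.7 CPM untreated and at 113, 128 and 125 CPM in auxin. All 3 auxin libraries exceeded the highest of the 9 untreated libraries numbered from 25 (82.7 CPM), and the log2 fold change was 0.88 ± 0.09 (SE; edgeR adjusted p = 2.14e-08). Rrm2b, the p53-induced ribonucleotide reductase subunit, stood at 6.47, 7.22 and 6.59 CPM untreated and 11, 11.1 and 10.4 in auxin. The death receptor Fas rose from 0.407 ± 0.205 to 0.902 ± 0.275 CPM (SD, n = 3 each), a call that was lost without auxin replicate 3 or untreated replicate 2. The cell cycle inhibitor Cdkn1a and the p53 ligase Mdm2, named after their values were seen, rose by 0.62 and 0.46 on the log2 scale. The proapoptotic Bax and Bbc3 had log2 fold changes of -0.13 and 0.07 and were not called.

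Lysosomal genes rose in part. Of 19 listed genes 9 rose and 1 fell, and the median was 0.23. The fall was lost without any 1 of the 6 libraries. Lamp2, a lysosomal membrane protein, rose from 80.9 ± 4.03 to 122 ± 3.004 CPM (SD, n = 3 each), with untreated libraries numbered from 25 at 74.3 to 116 CPM. Hexa, which degrades gangliosides, had a log2 fold change of 0.57 and the cholesterol carrier Npc2 one of 0.39. Of 20 targets of NRF2, the regulator of the oxidative stress response, 6 rose, led by Nqo1 and malic enzyme Me1, which went from 65.5 to 94.6 CPM, and 2 fell, of which none was left without auxin replicate 2 and 1 without auxin replicate 1 or 3 or untreated replicate 2. The 15 heat shock genes gave no call in either direction by edgeR or DESeq2, and 1 rose at an unadjusted edgeR p under 0.05.

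Most listed genes of the amino acid response were lower. ATF4 is the transcription factor that raises amino acid transport, serine synthesis and tRNA charging when amino acids run short. Of 27 listed genes 18 fell and none rose, with a median log2 fold change of -0.36, and without any 1 library 16 or 17 fell. Of the 18, 17 also fell in both the PDS5AB and the WAPL line. Of all genes that fell in the Tir1 line 27.1% also fell in those lines, which is 2.60% of all tested genes. Of the 18, 8 lay below all untreated libraries numbered from 25, a position held by 27.1% of all genes that fell and 7.61% of all tested genes. Slc7a3, a transporter of cationic amino acids, stood at 84.1, 109 and 106 CPM untreated and 38.8, 52.4 and 48.3 CPM in auxin. The groups did not overlap, the untreated libraries numbered from 25 lay between 73.9 and 105 CPM, and the log2 fold change was -1.10 ± 0.12 (SE; edgeR adjusted p = 1.91e-07). It fell by 3.11 in PDS5AB and by 2.44 in WAPL. Chac1, which degrades glutathione, went from 6.58, 10.7 and 8.12 CPM to 4.26, 5.13 and 3.94. Slc7a11, the cystine transporter and the 1 of the 18 not called in the other lines, stood at 7.05, 9.91 and 7.34 CPM untreated and 3.37, 0.249 and 3.04 in auxin. Its call was lost without auxin replicate 2, the library at 0.249. Named after their values were seen, Phgdh and Psat1 of serine synthesis fell by 0.89 and 0.66 on the log2 scale, and Atf4 itself fell by 0.36.

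Most listed output genes of Wnt signalling were higher. CHIR-99021, in the medium of both groups, inhibits the kinase that marks beta-catenin, the pathway's effector, for degradation. Of 17 listed genes 10 rose and none fell, with a median log2 fold change of 0.59. Sp5, a direct beta-catenin target, stood at 36.6, 35.6 and 32.6 CPM untreated and 93.0, 97.8 and 118 in auxin. Untreated libraries numbered from 25 lay between 31.7 and 61.1 CPM, below all auxin libraries, and the log2 fold change was 1.56 ± 0.18 (SE; edgeR adjusted p = 2.95e-07). Axin2, the pathway's feedback inhibitor, went from 73.7, 59.4 and 62.1 CPM to 132, 135 and 147. The 9 untreated libraries numbered from 25 stood between these groups, at 89.1 to 109 CPM. Sp5 and Axin2 also rose in PDS5AB (by 1.38 and 0.73) and in WAPL (by 1.19 and 0.73). Rnf43, a ligase that clears Wnt receptors, rose from 0.951 ± 0.29 to 2.97 ± 0.0637 CPM (SD, n = 3 each).

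Other Wnt genes were as high in untreated libraries numbered from 25 as in auxin, or differed by library number. Lef1, the partner of beta-catenin on DNA, stood at 1.69, 1.45 and 1.28 CPM untreated and 5.78, 6.08 and 7.03 in auxin. The 9 untreated libraries numbered from 25 lay at 5.47 to 12.5 CPM, a range that held all 3 auxin libraries. T, the mesoderm factor Brachyury, went from 1.21, 0.748 and 1.06 CPM to 4.47, 4.05 and 3.91, inside the 2.96 to 9.85 CPM of those untreated libraries. Cdx1, a caudal homeobox gene, was among the 180 genes that separate all 30 libraries by number. Its relative Cdx2, a trophoblast and posterior factor, was another: it stood at 1.40, 1.72 and 1.24 CPM untreated, 10.3, 8.73 and 10.7 in auxin, and 2.76 to 7.96 in untreated libraries numbered from 25. Of the 10 Wnt genes that rose, 5 lay above those libraries and 4 also rose in PDS5AB and WAPL, against 38.2% and 25.96% of all genes that rose.

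**Figure D4:**
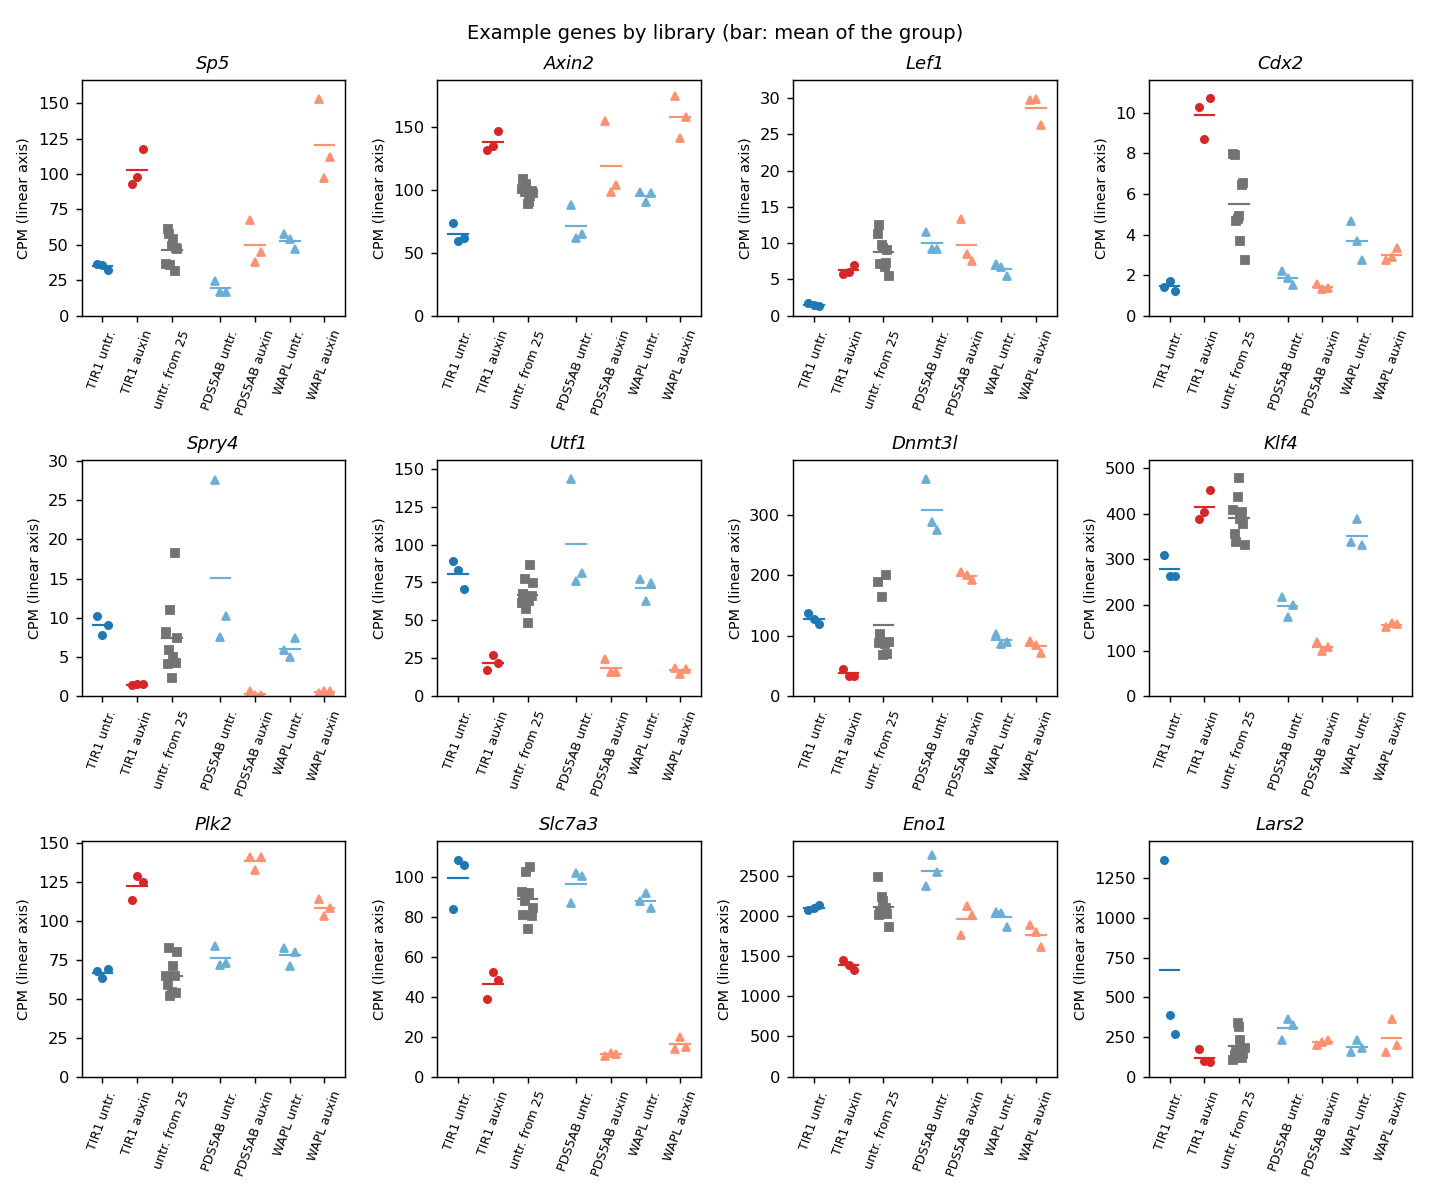
CPM of 12 genes in each library on linear axes, in the same columns as the plot of receptor genes; points are libraries and bars are group means. Sp5, Plk2, Utf1, Slc7a3 and Eno1 in auxin lie outside the range of the 9 untreated libraries numbered from 25, Lef1 and Klf4 lie within it, and the first Lars2 library stands alone at 1366 CPM.

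Feedback genes of ERK signalling fell in part. PD0325901, in the medium of both groups, inhibits the kinase that activates ERK. Of 17 listed genes 4 fell and 2 rose. Spry4, a feedback inhibitor, stood at 10.3, 7.79 and 9.08 CPM untreated and 1.43, 1.49 and 1.51 in auxin. Every auxin library lay below the 9 untreated libraries numbered from 25 (2.26 to 18.3 CPM), and the log2 fold change was -2.61 ± 0.37 (SE; edgeR adjusted p = 8.78e-06). Spry4 fell by 5.54 in PDS5AB and by 3.41 in WAPL. Etv4, a transcription factor downstream of ERK, fell from 64.8 ± 8.22 to 24.8 ± 0.421 CPM (SD, n = 3 each), but untreated libraries numbered from 25 ran from 13.96 to 50.7. Dusp6, the phosphatase that shuts off ERK, fell from 10.7 ± 1.00 to 5.81 ± 0.723 CPM. Spry2, a relative of Spry4, and the immediate early gene Fos, named after their values were seen, rose by 0.43 and 0.67 on the log2 scale. Neither rise held without untreated replicate 2, and 1 held without auxin replicate 3 or untreated replicate 3.

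Pluripotency genes split. Of 19 listed genes 4 rose and 4 fell, with a median log2 fold change of -0.03. Utf1, a chromatin factor of the inner cell mass, stood at 89.0, 82.9 and 70.5 CPM untreated and 16.99, 26.9 and 21.9 in auxin. Untreated libraries numbered from 25 lay between 48.0 and 86.4 CPM, and Utf1 fell under treatment in all 5 lines, PDS5AB-NIPBL and WAPL-NIPBL with dTAG-13 included, where 8.06% and 3.45% of tested genes fell. Its log2 fold change in the Tir1 line was -1.88 ± 0.21 (SE; edgeR adjusted p = 1.50e-07). Dppa3, a maternal factor that protects DNA methylation in the zygote, went the other way, from 5.00, 7.40 and 8.86 CPM to 16.2, 22.7 and 21.6. The auxin libraries lay above all 9 untreated libraries numbered from 25, whose highest was 8.56. Klf4, a reprogramming factor and target of leukemia inhibitory factor, rose from 279 ± 27.3 to 415 ± 33.1 CPM (SD, n = 3 each), inside the 331 to 479 CPM of those untreated libraries. In PDS5AB and WAPL it fell, by 0.86 and 1.17 on the log2 scale. Without auxin replicate 1, or without either of untreated replicates 1 and 2, 2 genes of the list fell in place of 4. Of 13 genes of the leukemia inhibitory factor pathway 6 rose, Klf4 and the receptor subunit Il6st among them, and 1 fell. Without auxin replicate 3, 3 rose.

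Genes of Nodal and activin signalling and markers of other cell types moved in both directions. Lefty1, an inhibitor of Nodal, went from 16.6, 14.5 and 12.5 CPM to 5.87, 4.36 and 4.94, below all untreated libraries numbered from 25 (8.82 to 29.6). It rose by 0.86 in PDS5AB and by 2.10 in WAPL. Of 13 Nodal and activin genes 4 fell and 1 rose (5 and 4 at an unadjusted edgeR p under 0.05). Inhbb, an activin subunit, fell from 28.4 ± 3.61 to 10.7 ± 2.36 CPM (SD, n = 3 each). Among 14 genes of the formative epiblast 5 fell and 2 rose, and 3 fell without untreated replicate 1. Otx2, an anterior epiblast factor, fell from 5.85 ± 0.847 to 2.56 ± 0.122 CPM. Of 17 endoderm genes 3 rose and 3 fell, or 1 fell without auxin replicate 3 or untreated replicate 1. Their summed level was 528 to 586 CPM untreated and 559 to 586 in auxin, under the 628 to 727 of untreated libraries numbered from 25, and 11 of them rose in PDS5AB and 9 in WAPL. Col4a1, a basement membrane collagen, stood at 41.7, 38.7 and 31.4 CPM untreated and 20.9, 13.9 and 13.1 in auxin, under the untreated libraries numbered from 25. Of 9 tested neural genes 4 fell, Nrcam and Neurod1 among them, with a summed level of 269 to 287 CPM untreated and 228 to 249 in auxin, within the 208 to 298 of untreated libraries numbered from 25. The proneural gene Neurog2 was below the count filter. Of 14 streak and mesoderm genes 4 rose, and their summed level went from 77.5 to 97.4 CPM up to 141 to 154. Of 12 trophoblast genes 3 rose and 2 fell, with no fall left without auxin replicate 3 or untreated replicate 1 and 1 without any other library but untreated replicate 2, and the defining Elf5 was below the count filter. The 13 two-cell-like genes, active in the early embryo and in rare stem cells, summed to 3.70 to 5.21 CPM untreated and 2.94 to 3.94 in auxin, and none was called by edgeR or DESeq2, with 1 lower at an unadjusted edgeR p under 0.05. In PDS5AB and WAPL 11 and 10 of the 13 rose, against 25.8% and 17% of all tested genes. In bulk RNA, a change in the number of cells of a type and a change of RNA within them cannot be told apart, and the part of such cells in the other results was not tested.

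Some glycolytic enzymes were lower. Of 18 listed genes 6 fell and 1 rose, and all 6 lay below every untreated library numbered from 25. That position was held by 27.1% of all genes that fell and by 7.61% of all tested genes. The rise held only without untreated replicate 1 among the fits that left out 1 library. Eno1, enolase, stood at 2072, 2096 and 2136 CPM untreated and 1453, 1392 and 1323 in auxin (log2 fold change -0.60 ± 0.08, SE; edgeR adjusted p = 2.23e-06). The lowest of the 9 untreated libraries numbered from 25 was at 1863 CPM. Ldha, lactate dehydrogenase, and Pkm, pyruvate kinase, fell by 0.48 and 0.43 on the log2 scale. Their effects were -0.38 and -0.27 in PDS5AB, where both were called, and -0.04 and -0.10 in WAPL, where neither was. Summed over the list, the level was 17000.3 to 18014 CPM untreated and 13591 to 14783 in auxin. The untreated libraries numbered from 25 summed to 16928 to 21868 CPM. Of 14 genes induced by hypoxia, pyruvate dehydrogenase kinase Pdk1 fell, a call that was lost without untreated replicate 3, and none rose by edgeR or DESeq2, although the median was 0.34. At an unadjusted edgeR p under 0.05, 2 rose. With the 6 Tir1 libraries alone 7 of the 14 rose, and with no filter on low counts 8 did.

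Some genes of growth and replication fell by small steps, in each list fewer than those that were not called. Of 30 replication genes 12 fell and none rose, with a median of -0.16, and 11 of the 12 also fell in PDS5AB and WAPL. Of all genes that fell in the Tir1 line, 27.1% fell in both of those lines. Whatever their Tir1 call, 27 of the 30 fell in PDS5AB and 26 in WAPL, against 20.2% and 15.8% of all tested genes. Gins2, a helicase subunit, went from 54.0 ± 3.22 to 40.96 ± 1.24 CPM (SD, n = 3 each). Of 85 cytosolic ribosomal protein genes 29 fell, of 76 mitochondrial ribosomal ones 22, of 74 nuclear genes of the respiratory chain 30, and of 32 proteasome genes 10, with no rise called by edgeR or DESeq2 in any of these lists and 1, a mitochondrial ribosomal gene, at an unadjusted edgeR p under 0.05. Their medians lay between -0.21 and -0.14. These counts depended on single libraries: without untreated replicate 2 they were 4, 7, 6 and 2, and without auxin replicate 1 they were 6, 7, 7 and 4. The replication count was 5 and 4 in the same fits. Without auxin replicate 3 the first 4 counts were 12, 11, 14 and 4, and the replication count was 7. The summed level of the cytosolic ribosomal genes in auxin, 61452 to 65707 CPM, lay within that of the untreated libraries numbered from 25, 59138 to 68749. Of 23 cholesterol synthesis genes 6 fell, led by Pmvk, and 3 did without auxin replicate 3.

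Some of the sharpest falls were in short RNA genes and in Lars2, and in several of them 1 library stood out. Gm23935, a 57-base gene annotated as a microRNA, stood at 2262, 579.8 and 455 CPM untreated and 243, 148 and 132 in auxin. Lars2, a mitochondrial leucyl-tRNA synthetase gene, stood at 1366, 387 and 266 CPM untreated and 171, 100.5 and 89.6 in auxin. In both, untreated replicate 1 was the highest by a wide margin. The same library led in Gm25911, Gm15564, Mir6236, Gm24270 and Gm24187, and 4 of these calls, those of Lars2, Mir6236, Gm24270 and Gm24187, were lost without it. None of these genes was called in the PDS5AB or WAPL line. The mitochondrial tRNA gene mt-Tl2 was highest in untreated replicate 3, at 7.37 CPM against 2.57 and 1.72, and its call was lost without that library. The part of these 2 libraries in the falls of short genes was not tested. Whether the fragments counted in these genes came from their own transcripts was not tested either.

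Other genes with large changes belong to no list. Mal, a membrane protein of lipid rafts, stood at 4.04, 6.43 and 6.13 CPM untreated and 28.5, 31.96 and 35.5 in auxin, above the 2.36 to 10.7 of untreated libraries numbered from 25. It was not called in PDS5AB and fell by 0.83 in WAPL. Exph5, a Rab27 effector, went from 0.698, 0.881 and 0.957 CPM to 4.07, 5.04 and 6.26, and rose in PDS5AB and WAPL by 1.90 and 2.13. Htr5a, a serotonin receptor gene, went from 3.75, 3.21 and 3.01 CPM to 17.4, 14.8 and 14.7 and rose by 2.85 and 3.46 in those lines. The chloride channel family member Clic6 rose by 2.40 on the log2 scale, the water and glycerol channel Aqp3 by 1.14, the desmosomal Dsp by 1.17, Fetub by 1.29 and the methyltransferase Bhmt by 1.06. Of these 5, Clic6, Aqp3, Dsp and Fetub were also called higher in PDS5AB, where 25.8% of tested genes were, and none in WAPL, where 17% were. All 5 lay above every untreated library numbered from 25, as did 38.2% of all genes that rose and 9.38% of all tested genes. Dnmt3l, the cofactor of de novo DNA methylation, stood at 137, 128 and 120 CPM untreated and 45.1, 34.04 and 33.5 in auxin, under the 68.2 to 200 of those libraries. It fell by 0.63 in PDS5AB and was not called in WAPL (log2 fold change -0.17). Trh, thyrotropin-releasing hormone, fell from 211 ± 25.5 to 84.3 ± 10.9 CPM (SD, n = 3 each). It fell by 1.28 in PDS5AB and rose by 0.57 in WAPL. Eras, an embryonic stem cell Ras, fell from 9.53 ± 2.12 to 2.56 ± 0.404 CPM, and by 2.57 and 1.68 on the log2 scale in PDS5AB and WAPL.

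In PDS5AB 46.0% of tested genes were called (20.2% lower) and in WAPL 32.8% (15.8% lower). The 3 auxin treatments without dTAG-13 shared 1050 calls in the same direction (5.28% of tested genes), 534 higher and 516 lower. These are 25.96% of the Tir1 genes that rose and 27.1% of those that fell. Of the Tir1 calls, 586 higher and 602 lower genes were called in neither other line, and 121 and 105 were called the opposite way in both. Adding the position against untreated libraries numbered from 25, 200 higher and 171 lower genes were shared by the 3 lines and outside that range. Cyp1b1, Cyp1a1, Htr5a and Gpld1, a phospholipase, were among the shared genes whose smallest rise in any of the 3 lines was largest, and Spry4, Spink1, Utf1 and Eras held the same place among the falls. Gpld1 stood at 0.661, 0.881 and 0.780 CPM untreated and 3.65, 2.83 and 3.44 in auxin. In PDS5AB and WAPL the calls came with depletion of the tagged proteins, so shared auxin and shared depletion effects cannot be told apart there.

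Most listed cohesin genes were not called, and those that were called rose. Pds5a, Pds5b and the cohesin subunit Rad21 had log2 fold changes of 0.13, 0.14 and 0.10 and were not called (edgeR adjusted p = 0.37, 0.22 and 0.26). Wapl, the release factor, stood at 285, 282 and 306 CPM untreated and 364, 369 and 363 in auxin (log2 fold change 0.33 ± 0.08, SE; edgeR adjusted p = 0.0025). Nipbl, the loader, rose by 0.36, a call that was lost without untreated replicate 2. Rec8, the meiotic cohesin subunit, rose from 17.02 ± 0.673 to 28.5 ± 2.68 CPM (SD, n = 3 each), above the 17.7 to 23.9 of untreated libraries numbered from 25, and rose in PDS5AB and WAPL by 1.42 and 1.00. In all, 5 of 20 cohesin genes rose and none fell, against 10.4% and 9.59% of all tested genes, and 16 of the 20 had a positive log2 fold change. Without untreated replicate 1 or 2, 3 of them rose. Of 16 SCF ligase genes, the machinery that Tir1 joins, 2 rose and 1, Cand2, fell, a call that was lost without auxin replicate 1 or 2 or untreated replicate 1.

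**Figure D5:**
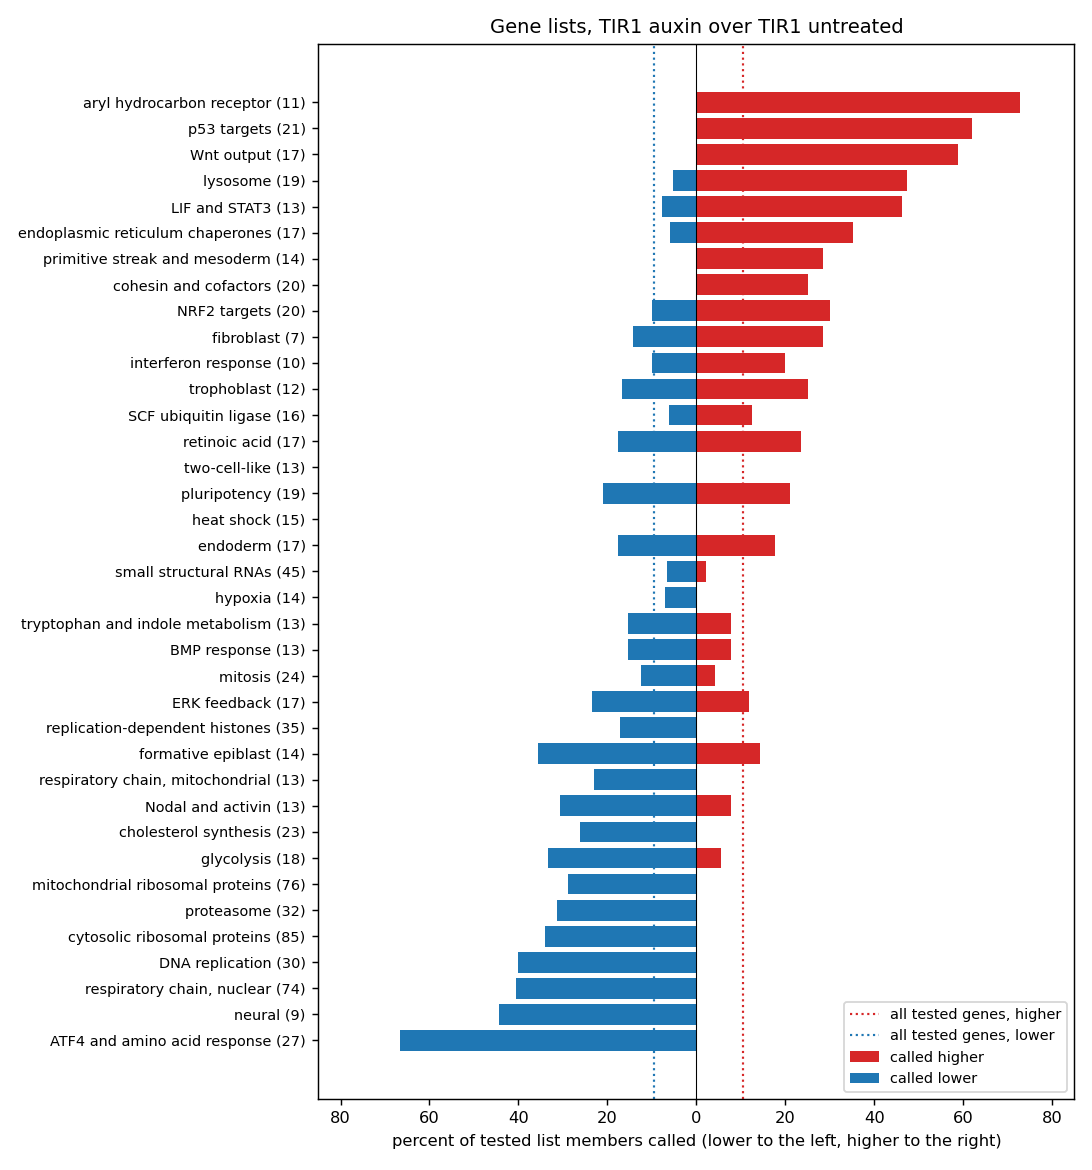
Percent of the tested members of each of 37 gene lists called higher (right) or lower (left) with auxin in the Tir1 line, with the number tested in brackets; dotted lines give the share of all tested genes, 10.4% higher and 9.59% lower. The receptor, p53 and Wnt lists reach furthest to the right and the ATF4 list furthest to the left.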

How the data were processed

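Libraries were stranded polyA mRNA-seq of total RNA, per the labels' protocols. The deposited values are raw fragment counts for each gene in 30 libraries, made by the authors with featureCounts 2.0.1 (paired fragments, no strand option) on GENCODE vM23, per the file headers; cutadapt, STAR 2.7.7a, deepTools and GRCm38.p6 (mm10) are named in the submitters' processing notes. Without strand, genes that overlap an antisense gene are uncertain, and so are near-identical copies. Among the genes named, this holds for Ahr, Tiparp, Cyp2s1, Rrm2b, Me1, Hexa, Axin2, Lef1, Dsp, Bhmt, Dnmt3l, Otx2, Col4a1, Gins2, Gpld1, Eras, Pds5a, Cand2, Oasl1, Dtx3l, Parp9, Id4 and Bmp4, whose exons overlap a gene on the other strand. Counts were tested with edgeR 4.0.16 (R 4.3.3; quasi-likelihood F-test, TMM scaling, filterByExpr with a minimum count of 10, 10 group means over all 30 libraries, Benjamini-Hochberg over 19868 genes, called at adjusted p under 0.05). CPM are TMM-scaled. On simulated data 94% of 2-fold and 79% of 1.5-fold changes were recovered. Named genes are the 10 largest changes each way among called genes whose 2 groups of libraries do not overlap in CPM, with a mean count of 50, 8 each way with a mean of 1000, the 3 largest called members of each of 37 lists, 8 each way shared by 3 lines, 3 each way that separate libraries by number, the receptor list and the tagged proteins. The members and lists were chosen with earlier results of these data known. Alternatives were DESeq2 1.42.0, RLE scaling, no filter, the 6 libraries alone, a 2-fold minimum, a replicate block and leaving out each library. Same-numbered libraries of the 2 Tir1 groups showed little shared deviation (r = 0.06, -0.01 and -0.01), and the main fit did not pair them. This check cannot show whether same-numbered libraries were handled together, in these or the other lines. Results for some named genes are not reported here. Intervals cover counting error only.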

Additional observations from a re-analysis of the deposited data

Results flagged for a closer look

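Among the genes with the largest Tir1 changes, 11 had an effect that differed from both the PDS5AB and the WAPL auxin effect by edgeR's interaction test. Of all tested genes, 26.3% differed from the PDS5AB effect and 20.7% from the WAPL effect. The share that differed from both is not given. These genes were picked for large Tir1 effects, which the interaction also contains, so a difference was partly built in. Their count therefore cannot show that they differ between lines more often than other genes. The values given are the Tir1 effect minus the PDS5AB effect, and then minus the WAPL effect, on the log2 scale.

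The receptor targets Cyp1a1 (3.54 and 2.72) and Ahrr (4.92 and 3.13) rose more in the Tir1 line. Cdx2 differed by 3.15 and 3.09 (edgeR adjusted p = 8.09e-08 and 2.14e-08), and the processed pseudogene Gm13577 by 3.56 and 3.52 (edgeR adjusted p = 2.17e-07 and 2.71e-09). Both of these genes separate all 30 libraries by number. The pseudogene Gm6274 differed by 3.47 and 2.61, and Mal by 2.00 and 3.36. The short or mitochondrial RNA genes with a lower value in the Tir1 line were Gm25911 (-3.40 and -3.74), Gm15564 (-2.71 and -3.71), Gm24270 (-2.46 and -3.70), mt-Tl2 (-2.65 and -2.82) and Gm23935 (-2.05 and -3.08). In 4 of these 5 the first untreated Tir1 library was the highest, and in mt-Tl2 the third was. Without that highest library the Tir1 log2 fold changes went from -4.05 to -1.99 for Gm25911, from -3.44 to -2.04 for Gm15564 and from -2.66 to -1.54 for Gm23935. Those of Gm24270 and mt-Tl2 went from -2.73 to -1.73 and from -2.67 to -1.80, and their calls were lost.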

How the results depend on the processing

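Auxin and library set cannot be told apart within the Tir1 line, and depth limits genes of a few fragments, such as Cyp1b1 in untreated cells. The count of 3962 calls was 3964 with RLE scaling, 4170 with DESeq2, 3868 with no filter on low counts and 4990 with the 6 libraries alone. The main fit did not use the replicate numbers to pair libraries. With the replicate number as a block, 4968 genes were called (2630 higher, 2338 lower), 1488 outside the range of untreated libraries numbered from 25 and 1408 the same way in 3 lines. A 2-fold minimum left 733 (282 higher, 451 lower), of which 246 lay outside that range, and 87 shared by 3 lines. Without 1 library the calls ran from 2689 to 3362, the rises from 1490 to 2004 and the falls from 1137 to 1633. The calls outside that range then ran from 1026 to 1282 and those shared by 3 lines from 711 to 1010. No named gene that was called changed direction under these settings, but the balance of rises and falls did at the 2-fold minimum for all genes and the retinoic acid and NRF2 lists, and under other settings for the hypoxia, mitosis, BMP and tryptophan lists. Of the 148 named genes, 122 kept their side of the threshold without auxin replicate 1, the library whose absence moved the most named genes. Over all genes the lowest count, 2689 calls, came without untreated replicate 2. The ATF4, p53, Wnt and receptor counts stayed within 1.5 times under every setting but the 2-fold minimum, and the falls in ribosomal, respiratory, proteasome and replication genes did not. Without 1 library they were as few as 4 (of 29 reported), 6 (of 30), 2 (of 10) and 4 (of 12), and with the 6 libraries alone the ribosomal and respiratory falls were 49 and 48.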

Other observations

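Retinoic acid genes moved both ways. Of 17 listed genes 4 rose and 3 fell. The binding proteins Crabp1 and Crabp2 fell from 8.76 and 5.98 CPM to 3.79 and 2.28. Of 10 tested interferon response genes 2 rose and 1, Oasl1, fell, a call that was lost without auxin replicate 1 or 2 or untreated replicate 3. The 2 were Dtx3l (15.3 to 22.7 CPM), a ubiquitin ligase, and its partner Parp9 (14.4 to 20 CPM), whose exons overlap on opposite strands. Both lay above every untreated library numbered from 25 and were lower in PDS5AB and WAPL. In tryptophan and indole metabolism 1 of 13 tested genes rose, Kyat1, and its call was lost without auxin replicate 1 or untreated replicate 3. Haao and Maob fell, the former not without auxin replicate 2 or untreated replicate 1. Maob, a monoamine oxidase, had 1, 2 and 4 fragments in the untreated libraries and none in the auxin libraries. Of 17 endoplasmic reticulum chaperone genes 6 rose and 1, the stress-induced Herpud1, fell, a call that was lost without auxin replicate 3.

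Of 35 tested replication-dependent histone genes, whose transcripts lack a polyA tail, 6 fell and none rose by edgeR or DESeq2, with a median log2 fold change of -0.68 and 1 higher at an unadjusted edgeR p under 0.05. Without untreated replicate 1, 2 fell, and without untreated replicate 3, 12 did. Of 13 mitochondrially encoded genes 3 fell, and none did without auxin replicate 2 or untreated replicate 2. Of 24 mitosis genes 3 fell and 1 rose, and no fall was left without any 1 auxin library or untreated replicate 2, and the rise was left only without untreated replicate 3. Of 13 BMP genes Id3 and Bmp4 fell and Id4 rose, with neither fall called without auxin replicate 1 or 2 or untreated replicate 3 and the rise of Id4 lost without auxin replicate 1 or untreated replicate 2. Of 7 tested fibroblast genes 2 rose and 1 fell, and their summed level was 1267 to 1518 CPM untreated and 1592 to 1678 in auxin, under the 1810 to 2247 of untreated libraries numbered from 25. A single rise was left without auxin replicate 1 or untreated replicate 2 or 3. Of 45 tested small structural RNA genes 3 fell and 1 rose, and DESeq2 called 1 each way. A single fall was left without auxin replicate 1 or 3 or untreated replicate 1, and no rise without auxin replicate 1 or untreated replicate 1.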
